A study of Mus musculus with 89 samples.

Results

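The Reg (regenerating islet-derived) genes encode small secreted C-type lectins, and 4 of them, Reg1, Reg3a, Reg3b and Reg3g, were followed by gene symbol through clumps and single cells of the mouse jejunum. All 4 were listed in both deposited tables, among 27538 genes in the table of clumps and 23379 in the table of single cells. Of the other Reg genes, Reg2, Reg3d and Reg4 were listed for clumps, and Reg3d and Reg4 for single cells. Reg3g binds bacterial peptidoglycan, kills Gram-positive bacteria and helps to keep the microbiota away from the surface of the small intestine. Reg3b is a closely related bactericidal lectin, Reg3a belongs to the same subfamily, and Reg1, also known as lithostathine or pancreatic stone protein, is best known from the exocrine pancreas. In the intestine, Reg3b and Reg3g are known to be induced by bacterial signals through the adaptor Myd88 and by the cytokine IL-22, which acts through the transcription factor Stat3.

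Jejunal epithelium of C57BL/6 male mice on a regular chow was separated with EDTA, either gently into small clumps of attached cells or further into single cells, which were sorted into 384-well plates and sequenced by MARS-seq. MARS-seq counts mRNA molecules of each well by unique molecular identifiers (UMIs) near the 3' end of the transcript. Clumps were sorted on DNA content: pairs of cells (labelled 4n) came from mice 1 to 5 on 27 plates and larger clumps (labelled h4n) from mice 1, 4 and 5 on 14 plates, while 4 plates of mouse 6 labelled h2n stood outside the comparisons. Single cells came from 4 mice on 44 plates, sorted as DAPI-negative, as CD45-negative Epcam-positive or on CD24, a marker enriched in secretory cells. No treatment or genetic change is named for any mouse, and the labels give an age of 3 months, other than 3 plates of single cells from mouse 2 at 4 months, which may therefore come from another animal and without which every member kept the call or the lack of one given below. The mouse was the replicate throughout, and the labels number mice within clumps and within cells without saying whether a shared number is the same animal, so mice were not matched between clumps and cells.

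After filters, 5883 clumps with a median of 2576 UMIs and 5199 cells with a median of 1689 UMIs remained. Each clump was placed in the crypt (3515 clumps), the mid-villus (1592) or the villus tip (776) from landmark genes of the epithelium that held none of the 4 members. Enterocyte markers such as Apoa1, Fabp1 and Sis made up 0.545 to 1.87% of UMIs in crypt sums of the 5 mice, 4.61 to 8.99% in mid-villus sums and 6.03 to 11.0% in tip sums. Sums per mouse held 372265 to 19015378 UMIs in the crypt, 168804 to 2552306 in the mid-villus and 77110 to 753990 at the tip, and mouse 4 alone gave 2105 of the crypt clumps. All 384 well barcodes recurred on several plates, as the plate design has it, and no well held the values of another. Levels are given in CPM, the UMIs of a gene in a sum per mouse scaled to a common total for every sum. UMIs count molecules near the 3' end and were not scaled by transcript length. Differences in capture between genes were not tested. In such sums, fewer cells of a type and less RNA per cell cannot be told apart.

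The members lie together on chromosome 6 (GRCm38, GENCODE annotation). From Reg3b to Reg3g, 6 Reg genes fell within 98.2 kb, in the order Reg3b (78370657 to 78373466, plus strand), Reg3d, Reg3a (78380709 to 78383827, plus), Reg2, Reg1 (78422711 to 78428667, plus) and Reg3g (78466269 to 78468872, minus). Reg4 lay apart on chromosome 3. The spliced transcripts of Reg3b (783 bases) and Reg3g (771 bases) were identical at 74.4% of 739 aligned bases, with 35 bases as their longest shared run. Reg3a (825 bases) was identical to Reg3b at 75.5% of aligned bases, with a longest shared run of 24 bases. Reg1 (904 bases) was the most distant, at 65.2 to 65.7%. In the last 300 bases, near which UMIs are counted, Reg3b and Reg3g shared no run longer than 17 bases. How the counting dealt with reads that fit more than 1 Reg gene is not given in the sources used here, so a small exchange of UMIs among members was not tested.

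The start-site regions of the 4 members, from 250 bases before to 50 bases after the start in RefSeq (GRCm38.p6), are shown because Reg3b and Reg3g were the pair that varied together below. All are written 5' to 3' on the strand of the gene, and capitals mark matches to the letters TTCNNNGAA or TTCNNNNGAA, the spacings of STAT sites, and to TATAAA on either strand. The regions are chr6:78370635-78370934 (plus) for Reg3b, chr6:78468825-78469124 (minus) for Reg3g, chr6:78380459-78380758 (plus) for Reg3a and chr6:78425733-78426032 (plus) for Reg1. The start sites of RefSeq lie 228 bases (Reg3b) and 3272 bases (Reg1) inside the genes as GENCODE draws them, whose outermost transcripts start further upstream, so positions below count from the RefSeq start alone.
Reg3b: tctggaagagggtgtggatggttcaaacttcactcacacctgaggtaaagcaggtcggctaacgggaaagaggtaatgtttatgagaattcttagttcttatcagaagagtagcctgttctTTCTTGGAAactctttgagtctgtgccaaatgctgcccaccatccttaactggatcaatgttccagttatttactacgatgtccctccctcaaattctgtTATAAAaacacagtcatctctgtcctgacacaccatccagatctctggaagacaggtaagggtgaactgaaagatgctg
Reg3g: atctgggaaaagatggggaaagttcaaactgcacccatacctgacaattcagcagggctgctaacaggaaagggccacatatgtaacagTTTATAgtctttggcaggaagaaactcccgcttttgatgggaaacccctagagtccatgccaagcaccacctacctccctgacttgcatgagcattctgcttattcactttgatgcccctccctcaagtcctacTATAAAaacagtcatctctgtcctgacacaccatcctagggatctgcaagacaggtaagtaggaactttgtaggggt
Reg3a: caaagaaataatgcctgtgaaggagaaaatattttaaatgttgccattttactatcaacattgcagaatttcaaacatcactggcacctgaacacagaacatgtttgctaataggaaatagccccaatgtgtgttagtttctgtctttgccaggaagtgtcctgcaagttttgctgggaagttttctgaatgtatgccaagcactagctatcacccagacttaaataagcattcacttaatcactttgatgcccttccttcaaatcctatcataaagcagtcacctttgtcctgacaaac
Reg1: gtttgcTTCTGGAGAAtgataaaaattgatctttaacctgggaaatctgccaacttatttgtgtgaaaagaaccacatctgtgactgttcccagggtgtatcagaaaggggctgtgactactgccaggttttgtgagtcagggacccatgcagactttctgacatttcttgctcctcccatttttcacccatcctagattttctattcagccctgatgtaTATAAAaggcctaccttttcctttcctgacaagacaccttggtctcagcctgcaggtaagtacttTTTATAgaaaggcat
TTCNNNGAA was matched in Reg3b alone, at position -129 from the start, and 8.3% of 32851 RefSeq start-site regions of the same length held these letters. TTCNNNNGAA was matched in Reg1 alone, at -244, against 6.95% of all regions. TATAAA stood at -29 in Reg3b, at -27 in Reg3g and at -30 in Reg1, with a further match on the opposite strand at -161 in Reg3g and at 35 in Reg1, and 13.6% of all regions held it. None of these letters was found in the Reg3a window. Reg3b and Reg3g were identical at 71.4% of 294 aligned bases, with a shared run of 29 bases, and Reg3a and Reg3g at 73.7% of 243. Reg1 gave no such alignment, and its longest run shared with Reg3g was 10 bases.

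Which position along the crypt-villus axis holds these transcripts was asked first, in clumps. Reg3a was 2.19-fold higher in mid-villus than in crypt clumps in the main test, a call that was lost without any one of mice 1 to 4, under DESeq2 and in pairs, and the log2 difference went from 1.13 to 0.35 without mouse 4. Reg3a fell by 4.84 on the log2 scale from mid-villus to tip, a value that rests on 13 tip UMIs. The call at the tip was lost when each clump took the zone of its highest z score (-1.77, adjusted p = 0.0691), and members were not tested against each other. Reg3b and Reg3g were among the abundant transcripts of crypt and mid-villus clumps and had lower mean values at the tip. These differences were not called in the main test, which does not pair zones of a mouse. With the mouse as a block they were called. Tip minus crypt turned positive for both under the z-score rule and when only the deepest crypt clumps were taken. Reg1 had low and variable values.

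Reg3a was present at 153, 101, 175, 74.0 and 177 CPM in crypt clumps of mice 1 to 5, at 173, 145, 221, 753 and 201 CPM in mid-villus clumps, and at 0, 5.16, 11.9, 25.9 and 0 CPM at the tip. The mid-villus value was above the crypt value in each of the 5 mice, most in mouse 4, and every tip value lay below every crypt and mid-villus value, resting on 0 to 2 UMIs in 4 mice and on 9 UMIs in mouse 3. For comparison, 22% of the 6944 genes tested were higher in mid-villus than in crypt in 5 of 5 mice, 6.01% lay below mid-villus at the tip without overlap, and 23.2% lay below crypt. By edgeR's quasi-likelihood test, Reg3a was 1.13 ± 0.43 (log2, SE, n = 5 mice) higher in mid-villus than in crypt (adjusted p = 0.0383), and its differences were -4.84 ± 0.63 from mid-villus to tip (adjusted p = 3.91e-05) and -3.71 ± 0.63 from crypt to tip (adjusted p = 5.84e-05). With a threshold of 0.05, 17.1% of all genes were called higher in mid-villus than in crypt, 5.69% lower at the tip than in mid-villus and 30.5% lower at the tip than in crypt. The mid-villus call rested on few animals: without mouse 4 the difference was 0.35 (adjusted p = 0.442), and it was also lost without mouse 1 (0.0559), mouse 2 (0.0668) or mouse 3 (0.0810), but not without mouse 5 (0.0280). It was lost with all 5 mice under DESeq2 (0.93, adjusted p = 0.0960) and under its size factors in edgeR (0.94, 0.0897). In pairs alone the difference was 0.36 (adjusted p = 0.583).

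Reg3b was present at 7332, 9519, 18487, 3552 and 24523 CPM in crypt clumps of mice 1 to 5, at 11577, 15120, 21607, 7677 and 20201 CPM in mid-villus clumps, and at 2092, 2913, 8088, 3839 and 11304 CPM at the tip. Mice 3 and 5 were the highest at every position, mid-villus exceeded crypt in 4 of 5 mice, and the tip was below mid-villus in all 5, but the groups overlapped. The differences were 0.30 ± 0.58 (mid-villus minus crypt, adjusted p = 0.720), -1.12 ± 0.59 (tip minus mid-villus, 0.221) and -0.82 ± 0.59 (tip minus crypt, 0.251).

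Reg3g was present at 6358, 6785, 12974, 3129 and 15766 CPM in crypt clumps, at 8465, 7594, 14632, 4667 and 10829 CPM in mid-villus clumps, and at 2278, 2653, 8135, 3022 and 8894 CPM at the tip. The animals ranked much as for Reg3b, with mice 3 and 5 above the others at every position, and the tip was below mid-villus and below crypt in 5 of 5 mice with overlapping groups. Tip values lay below mid-villus in 5 of 5 mice for 24.6% of all genes, and below crypt for 38.4%. The Reg3g differences were 0.068 ± 0.53 (mid-villus minus crypt, adjusted p = 0.937), -0.57 ± 0.53 (tip minus mid-villus, 0.524) and -0.50 ± 0.53 (tip minus crypt, 0.451).

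Reg1 was present at 17.3, 130, 72.9, 179 and 51.0 CPM in crypt clumps, at 30.9, 118, 38.4, 776 and 29.6 CPM in mid-villus clumps, and at 0, 46.4, 17.2, 64.8 and 0 CPM at the tip. Mouse 4 held by far the highest mid-villus value, mid-villus exceeded crypt in 2 of 5 mice, and the tip was the lowest of the 3 positions in every mouse. None of its differences passed the test (1.07 ± 0.76, adjusted p = 0.275; -2.54 ± 0.96, 0.0828; -1.47 ± 0.95, 0.202; in the same order as above).

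Since zones of 1 mouse come from the same animal, the same test was run with the mouse as a block, which changed several calls. Reg3b was then 0.54 ± 0.22 higher in mid-villus than in crypt (adjusted p = 0.0389), and it was lower at the tip than in mid-villus (-1.30 ± 0.23, 3.50e-05) and in crypt (-0.76 ± 0.23, 0.00404). Reg3g was lower at the tip than in mid-villus (-0.72 ± 0.21, 0.0102) and in crypt (-0.49 ± 0.21, 0.0428). Reg1 was lower at the tip as well (-1.76 ± 0.40, 0.000815, and -1.29 ± 0.40, 0.00490). With the block all 4 members were called lower at the tip in both contrasts, where 13.5% and 33.6% of all genes were, and Reg3a and Reg3b were called higher in mid-villus than in crypt, where 25.4% were. For Reg3g, mid-villus against crypt stayed without a call (0.23 ± 0.21, 0.371). In pairs alone, the kind of clump found in all 5 mice, mid-villus minus crypt turned to -0.26 for Reg3b and -0.55 for Reg3g, and each was higher in the mid-villus of 3 of 5 mice. With zones as set over all clumps, mouse 5 had only 17 crypt and 14 mid-villus pairs (38199 and 14299 UMIs). The members held 5.59% of UMIs in its crypt pairs, the highest share of the 5 mice. In pairs all 4 members were called lower at the tip than in crypt, as 31.4% of genes were, with -2.48 (Reg1, adjusted p = 0.0334), -4.22 (Reg3a, 2.38e-06), -1.65 (Reg3b, 0.0130) and -1.4 (Reg3g, 0.0437). By the same zones over all clumps, tip pairs of mice 4 and 5 were only 7 and 11 clumps (5740 and 10153 UMIs). Reg3a had 11 UMIs in tip pairs of all mice. The tip calls of Reg3a also depended on the rule for zones. With zones set by the highest z score of the 3 landmark shares, Reg3a was -1.77 from mid-villus to tip (adjusted p = 0.0691) and -0.14 from crypt to tip (0.841), and the crypt-to-tip values of Reg1, Reg3b and Reg3g were 0.22, 0.37 and 0.28.

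**Figure D1:**
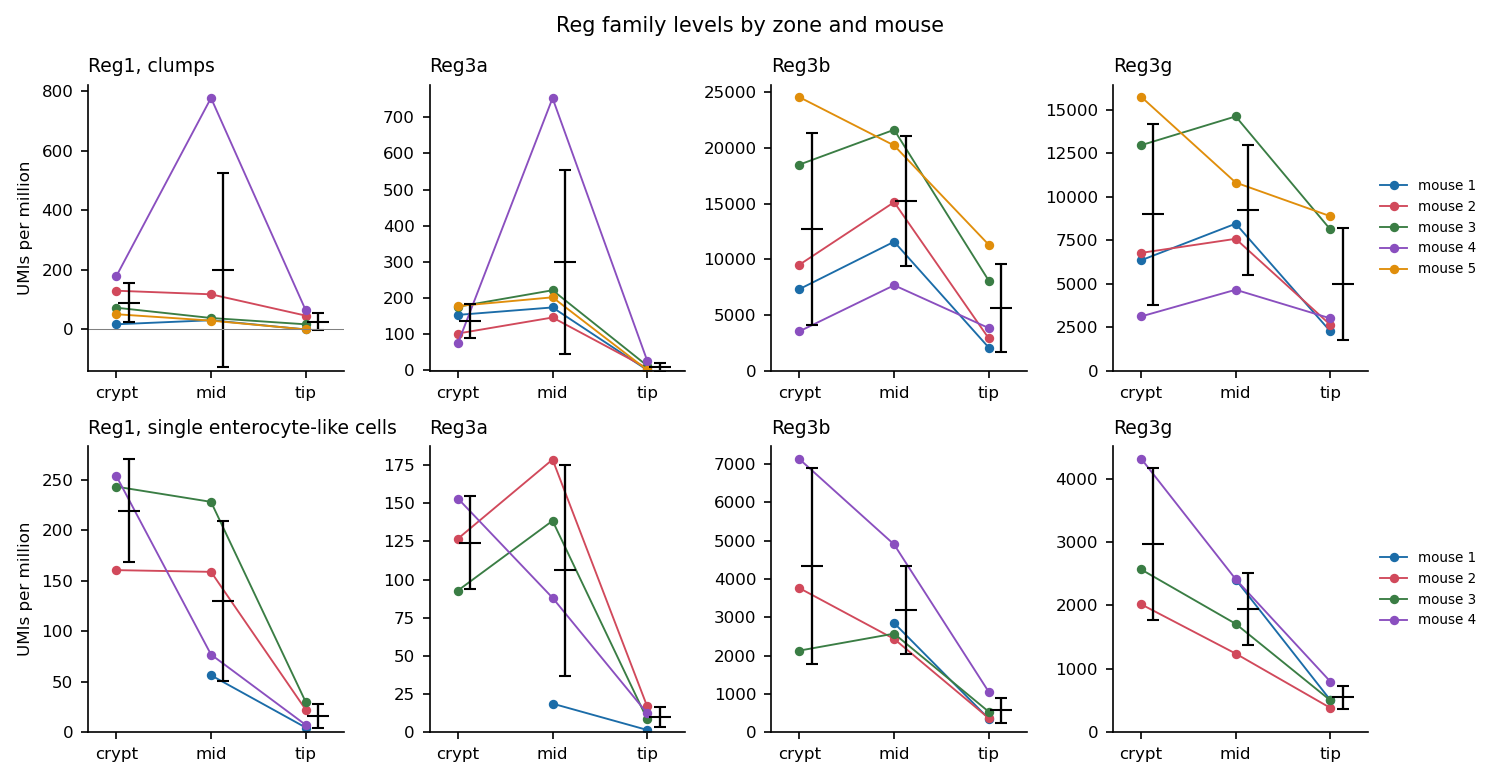
CPM of each member in crypt, mid-villus and villus-tip sums, with clumps of 5 mice in the top row and enterocyte-like single cells of up to 4 mice in the bottom row; points are mice, horizontal marks are means and bars are SD. Reg3a tip values (0 to 25.9 CPM) lie below all other Reg3a values of clumps, and in single cells the tip lies below the crypt and mid-villus for every member.

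The crypt group covers a wide stretch, and the levels changed within it. Clumps were therefore also ordered by tip share, the share of tip landmark UMIs among tip and crypt landmark UMIs, and cut into eighths of 684 to 787 clumps. Mean Reg3b over 5 mice rose from 2425 CPM in the lowest eighth through 4766, 9491 and 16126 to 25515 CPM in the fifth, and was 16310, 8974 and 5845 CPM in the last eighths. Reg3g ran from 2332 CPM through 4665, 7897 and 11258 to a highest mean of 15211 CPM in the fifth eighth, and was 5155 CPM in the last. Both means had their highest value at a tip share of 0.226 to 0.5 and were lower at either end. Reg3b was highest in that eighth in each mouse, at 18205, 20472, 34430, 8899 and 45570 CPM in mice 1 to 5. Mean Reg3a went from 12.7 CPM in the first eighth to 345 CPM in the fifth and 124 CPM in the last, where mouse 4, with only 5 clumps there, held 537 CPM and the other mice 0 to 54.5 CPM. Mean Reg1 was highest in the sixth eighth, at 197 CPM, against 41.3 CPM in the first, but mouse 4 held 674 CPM there, and without it that mean was 77.7 CPM and the highest mean, 88.0 CPM, lay in the fourth eighth.

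**Figure D2:**
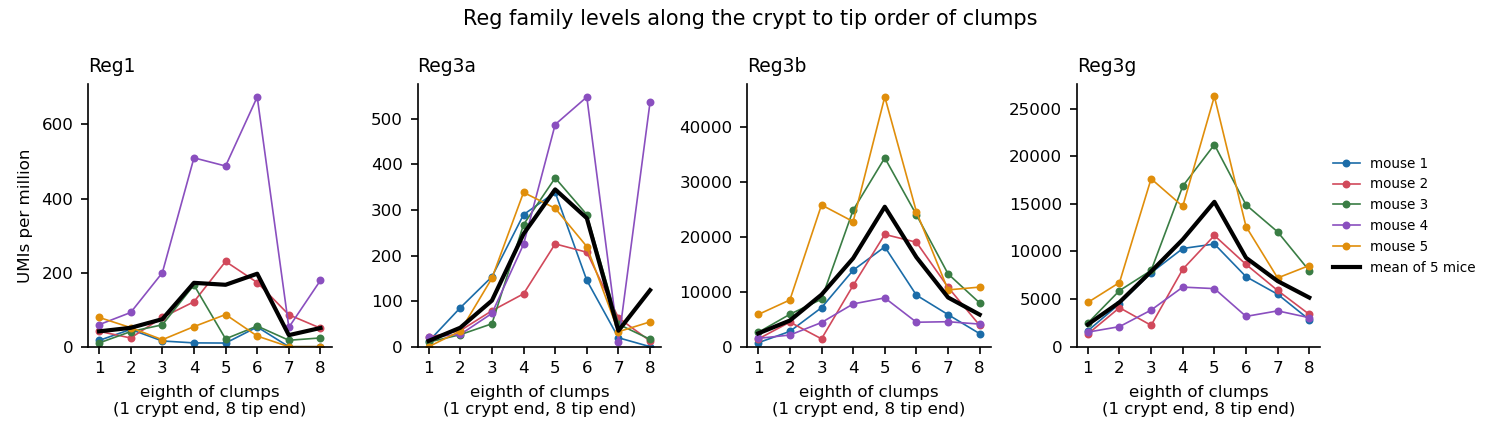
CPM of each member (vertical axis, linear) in eighths of clumps ordered by the share of tip landmark UMIs among tip and crypt landmark UMIs, from 1 at the crypt end to 8 at the tip end; thin lines are mice 1 to 5 and the thick line is their mean. Mean Reg3b and Reg3g are highest in the fifth eighth, at 25515 and 15211 CPM, and the Reg3a value of mouse 4 in the last eighth, 537 CPM, comes from 5 clumps.

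The differences were also computed with only the deepest crypt clumps as the crypt group, those in the 25% of clumps with the lowest tip share (1468 clumps, tip share of at most 0.0458), a choice made after the data had been seen. These clumps come from the first 2 eighths, where the mean of each member was lower than in the next 2, so the values describe the same profile and are given without a test. Mid-villus minus crypt was then 1.92 (Reg1), 3.40 (Reg3a), 2.20 (Reg3b) and 1.48 (Reg3g) on the log2 scale. Tip minus crypt was 1.13 (Reg3b), 0.96 (Reg3g) and -1.41 (Reg3a). The sign of the tip-against-crypt difference of Reg3b and Reg3g therefore depended on which crypt clumps were taken.

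In single enterocyte-like cells, placed by the same landmarks, tip cells had less of every member. These cells form a cluster of 2447 cells led by Apoa4, Apoa1, Apob and Ada, found without Reg genes. Landmark shares were scaled over cells alone, so a zone of cells need not be the same stretch as that zone of clumps. Stem and dividing markers averaged 0.0475% of UMIs in crypt cells and 0.108% in crypt clumps. Mid-villus minus crypt is therefore not compared between cells and clumps. Reg3b was present at 3760, 2133 and 7122 CPM in crypt sums of mice 2 to 4 (mouse 1 had too few crypt cells), at 2850, 2436, 2575 and 4899 CPM in mid-villus sums of mice 1 to 4, and at 357, 371, 538 and 1057 CPM at the tip. Reg3g was present at 2019, 2568 and 4315 CPM in crypt sums, at 2409, 1242, 1711 and 2414 CPM in mid-villus sums, and at 511, 386, 505 and 802 CPM at the tip. Crypt and mid-villus values of both overlapped, while every tip value lay below all of them, with mouse 4 the highest at the tip.

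Reg3a was at 127, 92.8 and 153 CPM in crypt sums, at 18.8, 179, 138 and 88.1 CPM in mid-villus sums and at 1.61, 17, 8.60 and 12.5 CPM at the tip. Reg1 was at 161, 243 and 254 CPM in crypt sums, at 56.5, 159, 228 and 77.0 CPM in mid-villus sums and at 4.83, 22.6, 30.2 and 7.50 CPM at the tip. For both of these members mouse 1 had the lowest mid-villus value, and no tip value reached a mid-villus value.

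All 4 members were called lower at the tip than in mid-villus cells, with log2 differences of -2.66 ± 0.50 (Reg1, adjusted p = 0.00151), -3.06 ± 0.53 (Reg3a, 0.000758), -1.90 ± 0.34 (Reg3b, 0.000963) and -1.25 ± 0.31 (Reg3g, 0.00718). Of the 4248 genes tested, 17.6% were called lower and 18.6% lay below without overlap. Against crypt cells the differences were -3.02 ± 0.54 (0.000125), -2.87 ± 0.58 (0.000418), -1.91 ± 0.35 (0.000182) and -1.4 ± 0.33 (0.00160) in the same order, with 31% of all genes called lower and 43.8% below without overlap. As folds, the tip held 3.72-fold less Reg3b and 2.38-fold less Reg3g than the mid-villus in the fit, which scales sums by TMM, while the ratios of the mean CPM, which are scaled by total UMIs alone, were 5.49 and 3.53. No member passed the main test between mid-villus and crypt cells, where 36.4% of genes were called, and the differences were -0.36 (95% interval from the SE, -1.25 to 0.53) for Reg1, 0.19 (-0.73 to 1.12) for Reg3a, -0.018 (-0.71 to 0.67) for Reg3b and -0.15 (-0.80 to 0.51) for Reg3g. With the mouse as a block only Reg3g changed, to a call of -0.38 ± 0.16 (adjusted p = 0.0499), where 23.5% of genes were called lower. Ordered by tip share, mean Reg3b of enterocyte-like cells was 5329 and 5392 CPM below a tip share of 0.8 (mice 2 to 4). Over mice 1 to 4 it was 3814 CPM up to 0.909, where mouse 1 held 9109 CPM in 23 cells and the others 946 to 3401 CPM, then 962, 728 and 896 CPM, and 534 CPM in the 613 cells without crypt landmark UMIs.

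The 2 abundant members were compared with each other through the number of Reg3b UMIs for each Reg3g UMI, read as a change between positions. The ratio was 1.15, 1.4, 1.42, 1.14 and 1.56 in crypt clumps of mice 1 to 5, 1.37, 1.99, 1.48, 1.64 and 1.87 in mid-villus clumps, and 0.918, 1.1, 0.994, 1.27 and 1.27 at the tip. It was higher in mid-villus than in crypt and lower at the tip than in mid-villus in each of the 5 mice, and the tip values did not overlap the mid-villus values. In pairs alone the ratio was higher in mid-villus than in crypt in 4 of 5 mice and lower at the tip than in mid-villus in 5 of 5, with overlapping values (0.847 to 2.12 at the tip and 1.23 to 2.46 in mid-villus). The tip value of 2.12 came from 7 clumps of mouse 4. On the log2 scale the mean change within mice was -0.59 ± 0.17 (SD) from mid-villus to tip and 0.32 ± 0.20 from crypt to mid-villus. An exact two-sided permutation test within mice gave p = 0.0625 for each, the smallest that 5 pairs allow. The same test without the pairing gave p = 0.00794 and 0.0556. It treats 2 zones of 1 mouse as separate animals, so these values are not relied on. In enterocyte-like cells the mean ratio was 1.45 ± 0.54 in the crypt (SD, n = 3 mice), 1.67 ± 0.40 in the mid-villus and 1.01 ± 0.26 at the tip (n = 4). It was lower at the tip than in mid-villus in 4 of 4 mice, but the groups overlapped. The exact permutation test within mice gave p = 0.125, the smallest that 4 pairs allow. These tests were chosen after the values had been seen. Together the members held 0.693 to 4.05% of all UMIs of crypt clumps, 1.39 to 3.65% of mid-villus clumps and 0.437 to 2.02% of tip clumps.

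The spread between mice depended on the member and the zone. In crypt clumps the highest mouse held 6.90 times the Reg3b of the lowest and 5.04 times the Reg3g, and of 1383 genes with a mean of at least 100 CPM there, 5.42% and 7.52% had as large a range. The median gene varied 2.23-fold. Reg3a varied 2.39-fold, which 41.7% of those genes matched. In the mid-villus Reg3b varied 2.81-fold and Reg3g 3.14-fold, and 39.9% and 31.9% of genes had as large a range, and at the tip 5.40-fold (19.4%) and 3.90-fold (31.4%). Reg3a varied 5.18-fold in the mid-villus (12.3%), and Reg1 10.3-fold in the crypt (3.90%) and 26.2-fold in the mid-villus (2.08%). Mouse 4 was the lowest for Reg3b, Reg3g and Reg3a in the crypt and so set the lower end of those ranges. It also gave most of the crypt clumps, and the part of clump size, plate and position within the crypt in its values was not tested.

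Which cell types carry the members was asked in single cells, clustered without Reg genes and named by marker lists. Enterocyte-like cells held the highest mean of each member. The mean over 4 mice was 2013 ± 1136 CPM (SD) for Reg3b, 1344 ± 529 CPM for Reg3g, 93.5 ± 72.2 CPM for Reg1 and 69.4 ± 48.1 CPM for Reg3a. Values of mice 1 to 4 were 768, 1768, 2002 and 3516 CPM for Reg3b and 824, 985, 1616 and 1950 CPM for Reg3g, with mouse 1 the lowest for both. The types also differed in the median mitochondrial share of UMIs, which was 32.7% in enterocyte-like cells and 14.4% in goblet-like, 16.3% in tuft-like, 10.0% in enteroendocrine-like and 9.91% in lymphocyte-like cells, and its part in the differences was not tested.

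For Reg3b and Reg3g, goblet-like cells (212 cells, led by Zg16, Fcgbp, Clca1 and Muc2) had the next highest mean, which was not so for Reg1 and Reg3a. They held 400.1, 464, 145 and 394 CPM of Reg3b and 849, 610.0, 259 and 433 CPM of Reg3g in mice 1 to 4. In mouse 1 goblet-like Reg3g was at the level of the enterocyte-like cells, and in mice 2 to 4 it was lower. Against enterocyte-like cells Reg3b (-3.13 ± 0.73 on the log2 scale, adjusted p = 0.00195), Reg1 (-3.22 ± 0.81, 0.00371) and Reg3a (0.000343) were called lower, the Reg1 call resting on 7 UMIs and lost under DESeq2 (-2.84, 0.0631), while Reg3g was -1.97 ± 0.81 (0.0870), and 13% of the 4181 genes tested were called lower. With the mouse as a block Reg3g passed as well (-2.25 ± 0.55, adjusted p = 0.000489), where 18.7% were called lower, and it also passed without mouse 1 (-2.38, 0.00201). A single Reg3a UMI was counted in goblet-like cells, so its fitted fold is not given. Pooled over mice it stood at 3.15% of the enterocyte-like level, with an exact 95% interval from counting error of 0.0797 to 17.7%. Goblet-like cells held fewer Reg3b than Reg3g UMIs in every mouse, at a ratio of 0.675 ± 0.198 (SD, n = 4).

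Reg3b and Reg3g were low in enteroendocrine-like cells (250 cells, led by Sst, Gip and Chgb) and tuft-like cells (182 cells of 3 mice, led by Dclk1, Trpm5 and Rgs13). Mouse 2 gave 219 of the first and 157 of the second, and the other sums rest on 6 to 19 cells. Reg3b was at 37.7, 62.5, 275 and 177 CPM in enteroendocrine-like sums of mice 1 to 4 and at 224, 41.0 and 185 CPM in tuft-like sums of mice 1 to 3. Reg3g was at 113, 80.4, 0 and 88.5 CPM and at 93.4, 35.2 and 185 CPM. The values of the 2 types overlapped, and all lay below the enterocyte-like values of the same mouse. All 4 members were called lower than in enterocyte-like cells in both types, where 21.5% and 12.8% of all genes were. The difference of Reg3b was -5.69 ± 0.85 in enteroendocrine-like cells (adjusted p = 5.28e-06) and -5.01 ± 0.93 in tuft-like cells (0.000111), and that of Reg3g -5.77 ± 1.01 (4.87e-05) and -5.32 ± 1.12 (0.000505). Without mouse 2, Reg3b and Reg3g kept both calls, and Reg1 and Reg3a had too few UMIs to be tested. Reg1 and Reg3a rested there on 4 UMIs each in enteroendocrine-like cells and on 1 UMI each in tuft-like cells, pooled levels of 8.60% (exact 95% interval 2.34 to 22.1%), 12.2% (3.3 to 31.3%), 2.67% (0.0676 to 14.9%) and 3.78% (0.0954 to 21.1%) of the enterocyte-like level. Mouse 2 gave most of the cells of both types, and single UMIs in the other mice set the upper ends by mouse, where Reg3a in enteroendocrine-like cells lay between 0 and 141% of the enterocyte-like level of the same mouse and Reg1 in tuft-like cells between 0 and 33.3%.

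Lymphocyte-like cells (1709 cells, led by Gzma, Gzmb and Ccl5) are not known to express these lectins. They held 345, 123, 185 and 496 CPM of Reg3b and 825, 79.4, 123 and 385 CPM of Reg3g in mice 1 to 4, so that mice 1 and 4 stood above the others. Mouse 1 gave only 20 of these cells, and their markers went against the name: lymphocyte markers made up 0.0255% of their UMIs, against 4.50 to 5.29% in mice 2 to 4, and enterocyte markers 2.77%, against 0.253 to 0.534%. Enterocyte markers made up 0.370 to 0.609% of UMIs in goblet-like sums, 0.232 to 0.388% in enteroendocrine-like, 0.469 to 0.650% in tuft-like and 2.46 to 3.68% in enterocyte-like sums. All 4 members were called lower than in enterocyte-like cells, with differences of -3.83 ± 0.73 (Reg1, adjusted p = 8.61e-05), -4.14 ± 0.69 (Reg3a, 1.50e-05), -3.66 ± 0.75 (Reg3b, 0.000198) and -2.59 ± 0.83 (Reg3g, 0.0117), where 26.8% of all genes were, but Reg3g lost its call without mouse 2 (adjusted p = 0.139), without mouse 4 (0.0872), without plates labelled CD24 (0.0872), under DESeq2 (0.0751) and under its size factors in edgeR (0.0648). Without mouse 1 all 4 calls held, with Reg3g at -3.87 (2.50e-07). A cluster of 395 cells led by immunoglobulin and haemoglobin genes held 0, 8.58, 126 and 322 CPM of Reg3b and 0, 25.7, 89.4 and 154 CPM of Reg3g. The naming rule made it B or plasma cell-like by 7 markers. Its leading genes also held 4 erythrocyte markers, so it is called the unnamed cluster here.

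By mean Reg3b the order was enterocyte-like, goblet-like (350 ± 141 CPM), lymphocyte-like (287 ± 168), tuft-like (150 ± 96.4), enteroendocrine-like (138 ± 110) and the unnamed cluster (114 ± 150). Below enterocyte-like cells each neighbour in that order overlapped the next. Reg3g had the same first 3 types, goblet-like at 538 ± 252 CPM and lymphocyte-like at 353 ± 342, followed by tuft-like (104 ± 75.5), enteroendocrine-like (70.5 ± 49.0) and the unnamed cluster (67.2 ± 68.9), again with overlapping neighbours. Without mouse 1 the lymphocyte-like mean of Reg3g was 196 CPM and that of goblet-like cells 434 CPM.

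Shares of cells with a UMI were compared after each cell had been thinned to 500 UMIs, with shallower cells left out. Reg3b was then seen in 33.7% of 2408 enterocyte-like cells (exact 95% interval 31.8 to 35.6%), 12.6% of 206 goblet-like cells (8.41 to 17.9%) and 7.23% of 1384 lymphocyte-like cells (5.92 to 8.72%). Reg3g was seen in 32.1%, 17.5% (12.6 to 23.4%) and 5.85% (4.67 to 7.22%) of the same cells. These intervals cover counting error over pooled cells. By mouse, with at least 20 cells in each of 3 mice, the Reg3g shares were 11.4 to 34.1% in goblet-like and 2.33 to 16.1% in lymphocyte-like cells and overlapped, as did those of Reg3b (4.29 to 18.2% and 2.66 to 18.0%). In enteroendocrine-like cells (242 kept) the shares were 2.89 and 2.07%, and in tuft-like cells (179 kept) 3.35 and 1.68%, at or below those of lymphocyte-like cells, and are not read as expression. Before thinning, Reg3b was seen in 62.0% of enterocyte-like, 34.9% of goblet-like and 12.1% of lymphocyte-like cells, whose median depths were 2865, 1983 and 872 UMIs. Also before thinning, 2.83 and 0.472% of goblet-like cells had a UMI of Reg1 and Reg3a, and 8.91 and 10.2% of the deeper enterocyte-like cells.

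**Figure D3:**
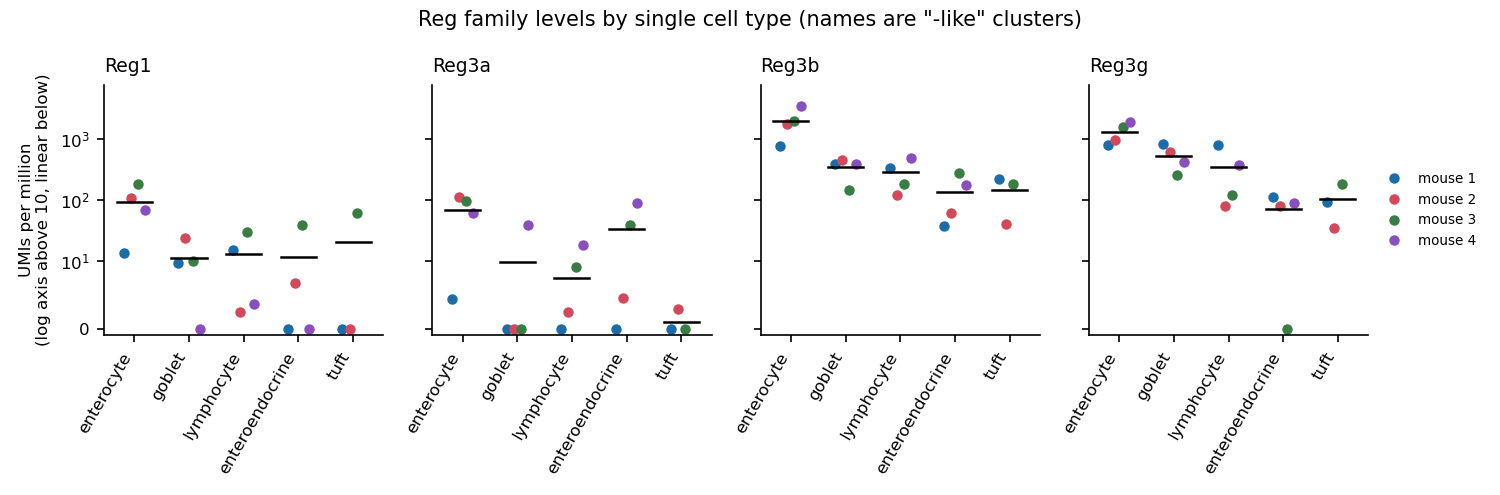
CPM of each member by cell type in single cells, on an axis that is logarithmic above 10 CPM and linear below; points are mice and bars are means. Enterocyte-like cells hold the highest mean of each member, 2013 CPM for Reg3b and 1344 CPM for Reg3g.

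Paneth cells of the crypt base, which secrete antimicrobial proteins, formed no cluster among the single cells, so crypt clumps were split by Paneth markers (defensins and Mptx2). Clumps with at least 1% of UMIs in these markers were found in mice 1, 3 and 4 (20, 18 and 84 clumps) and clumps with under 0.1% in mice 1 to 5 (391, 254, 406, 1271 and 149). Reg3b was at 151, 2146 and 1061 CPM in Paneth-marker clumps and at 8233, 9548, 19779, 3636 and 24026 CPM in the others. Reg3g was at 778, 3156 and 1823 CPM against 7076, 6803, 13811, 3085 and 14779 CPM. Reg3b did not overlap between the kinds, as 36.2% of all genes did not in this direction, and Reg3g overlapped only through mouse 4, whose other clumps held 3085 CPM.

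The differences were -2.82 ± 0.82 for Reg3b (adjusted p = 0.15), -1.42 ± 0.60 for Reg3g (0.332), -2.10 ± 0.60 for Reg3a (0.141) and -0.25 ± 0.65 for Reg1 (0.910), where 1.14% of 7003 genes were called, and 0.129% called lower. With the mouse as a block Reg3b was called lower (-2.28 ± 0.40, adjusted p = 0.00112), among 1.24% of genes, and DESeq2 called Reg3b (0.00579) and Reg3a (0.0238), among 1.16%. Paneth-marker clumps also differed in other ways. Their enterocyte markers were at 0.0606 to 0.537% of UMIs against 0.498 to 1.96%, their median tip share was 0.0190, 0.0676 and 0.0455 in mice 1, 3 and 4 against 0.0876, 0.140 and 0.0454, and in mouse 4 their median depth was 1151.5 UMIs against 7519, and the part of these in the difference was not tested. Among the deepest crypt clumps alone, no member was called, and 1.08% of genes were (Reg3b -1.74, adjusted p = 0.796). Reg4, by contrast, was 6.49 ± 0.85 higher in Paneth-marker clumps (adjusted p = 0.000351), and of 18 other epithelial antimicrobial genes tested, Mptx2 being left out as a gene of the split, 5 were called higher and 0 lower, against 1.01% and 0.129% of all genes (6 and 2 with the mouse as a block). Those higher included the Paneth cell products Lyz1 (9.72 ± 0.67) and Ang4 (9.71 ± 0.49). Clumps chosen by Paneth markers hold more Paneth cell products through that choice, so this count describes the split and is no test.

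**Figure D4:**
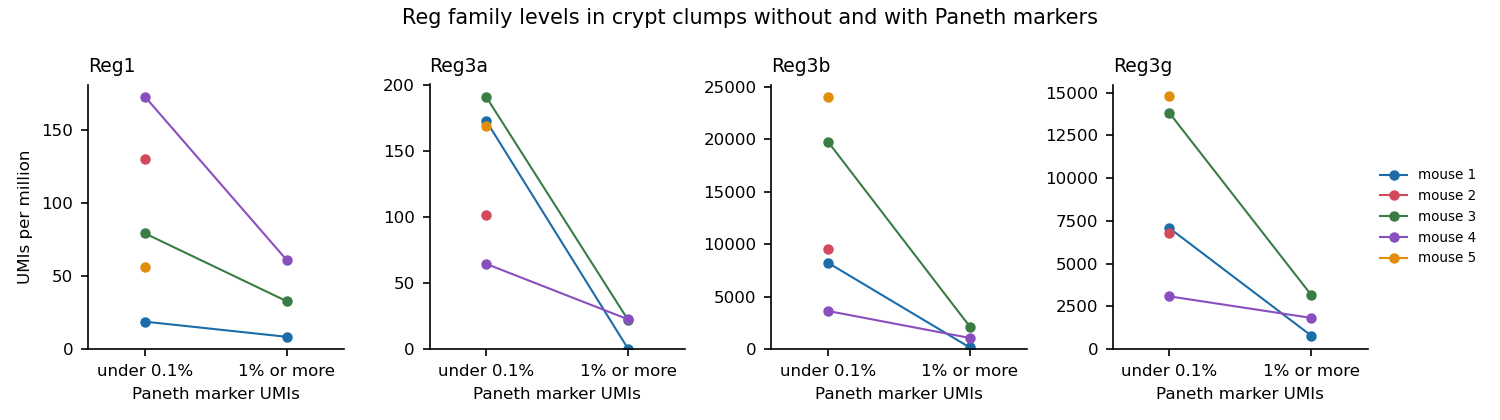
CPM of each member in crypt clumps with at least 1% of UMIs in Paneth markers (mice 1, 3 and 4) and with under 0.1% (mice 1 to 5), on linear axes; points are mice and lines join values of the same mouse. Reg3b is lower in the Paneth-marker clumps of all 3 mice, at 151 to 2146 CPM against 3636 to 24026 CPM.

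Whether the members were high in the same clumps was asked within each mouse and zone, in 4655 clumps thinned to 1000 UMIs. These clumps share libraries, plates and the limits of sparse counts, and the coefficients are given as a description. Reg3b and Reg3g went together, with a Spearman rho of 0.764, 0.756, 0.813, 0.659 and 0.80 in mice 1 to 5 and a mean of 0.76 ± 0.06 (SD). The rho was 0.84 ± 0.10 in crypt, 0.69 ± 0.12 in mid-villus and 0.60 ± 0.18 in tip clumps. It was 0.76 within plates, 0.74 in pairs alone and 0.72 with the tip share partialled out. Reg3a was more weakly associated with Reg3b (0.26 ± 0.09, 0.175 to 0.385 over mice) and Reg3g (0.22, 0.156 to 0.325). In tip clumps alone these means were -0.018 and -0.154 in 3 mice, where Reg3a had only 13 UMIs before thinning. Pairs with Reg1 had means of 0.032 to 0.045, carried by mouse 4 (0.141 to 0.245) and at -0.00859 to 0.00503 without it, and changed sign between mice, which in counts this sparse is no finding.

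In 2185 enterocyte-like cells, thinned the same way, Reg3b and Reg3g had a rho of 0.47 ± 0.08 (0.357 to 0.537 over mice), with means of 0.71 in crypt, 0.58 in mid-villus and 0.34 in tip cells. The pair was thus also associated cell by cell, with the lowest rho at the tip, where fewest UMIs were left. Over the 4 mice, Reg1 had a low rho above 0 with Reg3b (0.0333 to 0.136) and with Reg3g (0.0179 to 0.146).

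**Figure D5:**
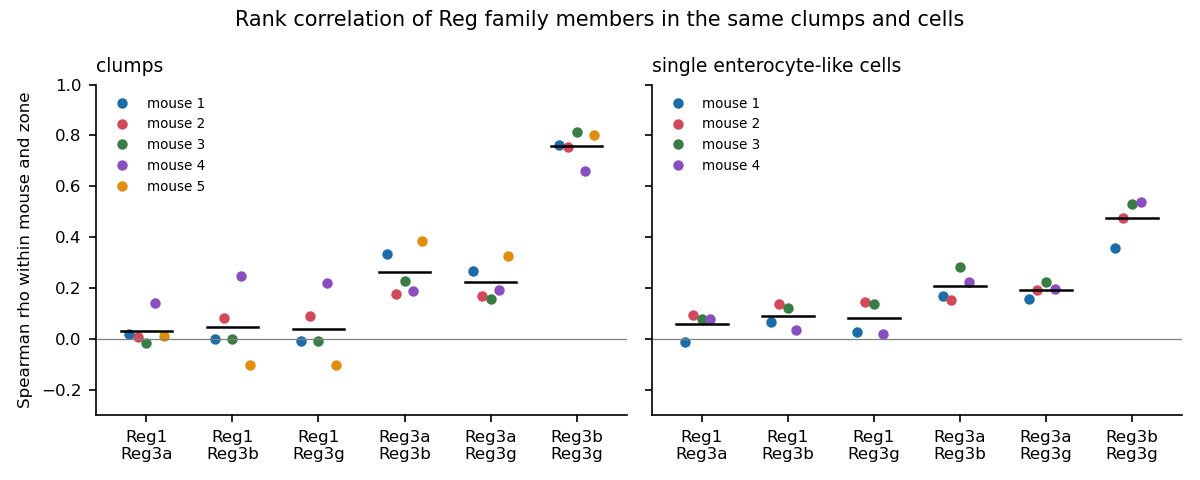
Spearman rho of each pair of members within mouse and zone, in clumps and in enterocyte-like cells thinned to 1000 UMIs; points are mice and marks are means. Reg3b with Reg3g stands at 0.659 to 0.813 in clumps and 0.357 to 0.537 in cells, above the other pairs.

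Of 2620 other genes with a mean of at least 0.05 UMIs per thinned clump, Reg3b was most like Reg3g (0.758), then Lypd8 (0.406), Sis (0.396), Plac8 (0.395) and Spink1 (0.367). These are means over 5 mice, each the mean of its zones weighted by their number of clumps. The median gene stood at 0.017 and the 99th percentile at 0.209. Reg3g was most like Reg3b, then Spink1 (0.379), Plac8 (0.357), Lypd8 (0.350) and Sis (0.334). Reg3a was most like Reg3b (0.262), Reg3g (0.222), Lypd8 (0.208), Sis (0.204) and Plac8 (0.194). Lypd8 encodes a protein that binds flagellated bacteria, Sis the brush-border enzyme sucrase-isomaltase and Spink1 a trypsin inhibitor. Lypd8, Sis and Plac8 were among the 5 nearest genes of all 3 Reg3 members, and Reg1 had no gene above 0.120.

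The UMIs of these genes were spread unevenly over clumps. The tenth of clumps with the most Reg3b held 30.9 to 45.9% of its UMIs in the crypt of the 5 mice, 27.9 to 35.8% in the mid-villus and 26.8 to 45.7% at the tip, and the highest clump had 106 Reg3b UMIs in 1000. After thinning, Reg3b was seen in 76.1, 73.5, 92.3, 70.4 and 91.8% of crypt clumps of mice 1 to 5, in at least 94.0% of mid-villus clumps of each mouse and in 64.2, 63.9, 94.3, 90.0 and 94.1% of tip clumps. The mid-villus share was thus the highest of the 3 in each mouse, while crypt exceeded tip in mice 1 and 2 and lay below it in mice 3 to 5. Reg3g gave the same order in each mouse, with 73.1 to 93.8% in crypt, 93.3 to 98.8% in mid-villus and 58.6 to 96.7% at the tip. Reg3a was seen in 15.5, 9.31, 13.8 and 7.71% of crypt clumps of mice 1 to 4 and in 12.3, 11.7, 15.1 and 33.8% of their mid-villus clumps. Reg1 was seen in 4.69% (mouse 3) and 14.0% (mouse 4) of crypt clumps and in 3.29 and 24.3% of mid-villus clumps of the same mice.

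Of the other Reg genes, Reg2 and Reg3d were close to 0 in clumps, with 2 and 25 UMIs among 26089038 in the crypt. Reg4, known from enteroendocrine cells, was at 0, 6841, 6059 and 354 CPM in enteroendocrine-like sums of mice 1 to 4 against 0 to 11.2 CPM in enterocyte-like sums, 8.57 ± 1.48 higher on the log2 scale (adjusted p = 4.30e-05). In goblet-like, lymphocyte-like and tuft-like cells it did not pass the main test, but with the mouse as a block it was called higher in goblet-like cells (3.59 ± 0.85, 0.000261) and lymphocyte-like cells (1.79 ± 0.74, 0.0266). Its pooled levels were 42.7 CPM in goblet-like, 40.4 CPM in lymphocyte-like and 38.9 CPM in tuft-like cells.

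Genes of the pathway that induces Reg3 lectins were read from a list of 26 (receptor Il22ra1, Stat3, Myd88, Toll-like receptors and others). In clumps 24 were listed and 12 had enough UMIs to test: 6 were called higher and 2 lower at the tip than in crypt, 0 higher and 1 lower at the tip than in mid-villus, and 3 higher and 1 lower in mid-villus than in crypt. Over all genes tested, 24.4% were called higher and 30.5% lower at the tip than in crypt, 7.47% and 5.69% at the tip than in mid-villus, and 17.1% and 25% in mid-villus than in crypt. With the mouse as a block 3 of the 12 were called higher at the tip than in mid-villus, where 15.1% of all genes were. Their median difference from crypt to tip was 0.92, against -0.11 over all genes. In enterocyte-like cells 7 were tested, with 4 higher and 1 lower at the tip than in crypt, against 31.5% and 31% of all genes. Of 30 other epithelial antimicrobial genes 20 were tested in clumps, with 9 higher and 8 lower at the tip than in crypt (median 0.74). Lypd8, like Reg3a, was lower at the tip than in crypt (-1.56 ± 0.38, adjusted p = 0.00169), and in enterocyte-like cells the same difference was -3.76 ± 0.35 (2.36e-07). Zg16, a goblet cell lectin that binds Gram-positive bacteria, and Sprr2a1, an antimicrobial small proline-rich protein, were higher at the tip than in crypt, by 2.97 ± 0.47 (2.92e-05) and 5.07 ± 0.81 (2.94e-05). Goblet markers made up 0.106 to 0.248% of UMIs in crypt sums and 0.105 to 0.732% in tip sums, and their part in the Zg16 difference was not tested. Lgals4, a galectin, and Pigr, the immunoglobulin transporter, did not pass the test (0.15 and 0.078, adjusted p = 0.666 and 0.840). The antimicrobial genes of the list thus moved in both directions along the axis.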

How the data were processed

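The analysis started from 2 tables of UMI counts, 1 of clumps and 1 of single cells. The authors demultiplexed reads with bcl2fastq 2.15.0.4, mapped them to GRCm38 with STAR through zUMIs and deposited whole-number UMI counts per gene and well, without normalization. The 4 empty wells per plate are not named, so no background was subtracted and stray RNA remains in the values. The members and all gene lists were chosen with earlier results of these data known.

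A clump was kept if it had over 500 UMIs, no more than 30% of them mitochondrial, and 200 genes or more, and the 2% with the fewest landmark UMIs were left out. The zone was that of the study's landmark list (crypt, mid-villus or tip, without Reg1) whose indicator correlated best with the scaled landmark shares. Cells (200 to 7000 UMIs, no more than 40% of them mitochondrial, 150 to 1500 genes) were clustered without Reg and mitochondrial genes (scanpy 1.11.5, 2000 genes, 25 components, 20 neighbours, resolution 0.1), a cluster being named from its marker lists, with at least 3 markers among 50 leading genes. No doublet caller was run. Cells entered zones with at least 10 landmark UMIs, and a mouse entered a sum with at least 5 wells.

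The main test on sums per mouse was the quasi-likelihood test of edgeR 4.0.16 (TMM, filterByExpr, Benjamini-Hochberg over all genes tested, threshold 0.05). DESeq2 1.42.0, its size factors, no filter, each mouse left out, other zone and cell rules, and the mouse as a block were alternatives. Sums of 1 mouse are paired, since they come from the same animal: after removal of group means their correlations were 0.183 to 0.564 between zones of clumps, 0.122 to 0.509 between zones of enterocyte-like cells, 0.163 to 0.337 between kinds of crypt clumps and -0.144 to 0.547 between cell types. Co-variation was measured by Spearman's rho within mouse and zone after thinning to 1000 UMIs. Intervals of pooled counts and shares are exact (95%) and cover counting error only. On simulated counts, the test recovered 100% of genes changed by 3 on the log2 scale among zones of clumps and of enterocyte-like cells, 72% in goblet-like against enterocyte-like cells and 92% in Paneth-marker clumps. Of genes changed by 2 it recovered 87% and 93% among these zones, but 39% and 68% in the goblet-like and Paneth-marker comparisons, and 6.43% of the calls in the Paneth-marker simulation were false. The named genes were the 4 members, the other Reg genes, at most 6 of each other list by mean CPM, and the 5 genes nearest to each member. Start-site sequences are from RefSeq (GRCm38.p6), where all 4 members matched by symbol, and protein sequences were not used here.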

Additional observations from a re-analysis of the deposited data

Results flagged for a closer look

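In 3 of 37 groups of 4 or 5 mice, 1 mouse stood apart from the others by the gap to its nearest neighbour, and chance alone gives about 1 such group in 20. Mouse 4 of the clumps held 776 CPM of Reg1 and 753 CPM of Reg3a in the mid-villus, where the other 4 mice held 29.6 to 118 and 145 to 221 CPM. Both kinds of clumps of that mouse showed it: Reg1 stood at 818 CPM in its 55 larger clumps and at 525 CPM in its 59 pairs, and Reg3a at 796 and 492 CPM. Its Reg3b and Reg3g there were the lowest of the 5 mice, at 7677 and 4667 CPM. Among enterocyte-like mid-villus cells, mouse 4 of the single cells held 4899 CPM of Reg3b, and the other 3 mice 2436 to 2850 CPM.

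Clumps of mouse 6, labelled h2n, were left out of the comparisons and held clear signal. Its 146 crypt clumps held 221 CPM of Reg1, 117 CPM of Reg3a, 8422 CPM of Reg3b and 6675 CPM of Reg3g. Its 64 mid-villus clumps held 201, 155, 11918 and 7314 CPM of the same genes. Its 68 tip clumps held 1672 CPM of Reg3b and 1498 CPM of Reg3g, while Reg1 had no UMI and Reg3a had 1. The levels of Reg3a, Reg3b and Reg3g were higher in its mid-villus than in its crypt and lowest at its tip, and Reg1 was lowest at the tip.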

How the results depend on the processing

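Of the differences of members recomputed under alternatives, 484 kept their direction and side of the threshold, 16 lost a call, 24 gained one and 24 changed sign, and the causes were not tested. With the mouse as a replicate block, Reg3b was 0.54, -1.30 and -0.76 and Reg3g -0.72 and -0.49 (both tip contrasts) in clumps, Reg1 -1.76 and -1.29, Reg3b in Paneth-marker clumps -2.28, goblet-like Reg3g -2.25, and mid-villus minus crypt in enterocyte-like cells 0.012 (Reg3b) and -0.38 (Reg3g). The block called 1988 genes between tip and mid-villus clumps (914 in the main test) and 182 in Paneth-marker clumps (80), and changed no other call of a member. DESeq2 gave 0.93 (Reg3a, call lost) and -0.16 (Reg3g) for mid-villus minus crypt, -2.17 (Reg3a), -2.83 (Reg3b) and 176 genes for Paneth-marker clumps, -2.84 for goblet-like Reg1 and -1.92 for lymphocyte-like Reg3g (both calls lost). Its size factors in edgeR gave 0.94 (call lost), -0.16 and, for lymphocyte-like Reg3g, -1.97 (call lost). That scaling moved the median gene from -0.07 to -0.29 (mid-villus minus crypt), from -0.06 to -0.18 (tip minus mid-villus), from -0.11 to -0.45 (tip minus crypt) and from -0.37 to 0 (goblet-like), and moved the numbers called higher and lower from 1189 and 1739 to 828 and 2090, from 519 and 395 to 464 and 564, from 1691 and 2115 to 1248 and 2579, and from 266 and 543 to 344 and 356. In enteroendocrine-like, tuft-like and lymphocyte-like cells these went from 444 and 898 to 565 and 586, from 395 and 535 to 500 and 413, and from 1076 and 1121 to 1227 and 869. Without a filter, Paneth-marker clumps gave -2.37 (Reg3a), -3.04 (Reg3b) and 295 genes, enterocyte-like mid-villus minus crypt 0.28 (Reg3b) and 0.12 (Reg3g), tip against mid-villus clumps 524 genes, and cell types 3167 (enteroendocrine-like, 1342 in the main test), 1327 (goblet-like, 809), 6146 (lymphocyte-like, 2197) and 1976 (tuft-like, 930). In pairs only, mid-villus minus crypt was -0.39 (Reg1), 0.36 (Reg3a), -0.26 (Reg3b) and -0.55 (Reg3g), tip minus crypt -2.48 (Reg1), -1.65 (Reg3b) and -1.40 (Reg3g), all calls gained, and 1475, 363, 2395 and 51 genes were called (mid-villus against crypt, tip against mid-villus, tip against crypt and Paneth markers). With the highest z score, tip minus crypt was 0.22 (Reg1), -0.14 (Reg3a), 0.37 (Reg3b) and 0.28 (Reg3g), Reg3a tip minus mid-villus -1.77, and 164 genes were called there. The deepest crypt clumps alone, chosen after seeing the profile and so no test of it, gave 1.92 (Reg1), 2.20 (Reg3b) and 1.48 (Reg3g) for mid-villus minus crypt, -1.41 (Reg3a), 1.13 (Reg3b) and 0.96 (Reg3g) for tip minus crypt, and 0.53 for Reg1 in Paneth-marker clumps. Reg1 among the landmarks gave -3.01 for Reg1 from mid-villus to tip. Mouse 6 added gave -2.26 and -2.85 for Reg1 at the tip and -0.059 for Reg3g between mid-villus and crypt. At least 30 landmark UMIs gave 0.080 for Reg3b between mid-villus and crypt cells. Without plates labelled CD24, lymphocyte-like Reg3g was -1.95 (call lost), and 527, 383, 155 and 390 genes were called in enteroendocrine-like, goblet-like, lymphocyte-like and tuft-like cells. Thinned to 500 UMIs, rho of Reg3b and Reg3g was 0.643 in clumps and 0.375 in cells, and of Reg3a and Reg3g 0.145 and 0.143. With the tip share partialled out Reg3a and Reg3g had 0.147 in clumps, and within plates cells had 0.192 (Reg1 and Reg3a), 0.311 (Reg3a and Reg3b) and 0.290 (Reg3a and Reg3g).

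Leaving out each mouse in turn, genes called ranged from 1723 to 3156 (mid-villus against crypt), 376 to 1062 (tip against mid-villus), 2486 to 4125 (tip against crypt) and 67 to 125 (Paneth markers), in enterocyte-like cells from 667 to 1362 (tip against mid-villus), and among cell types from 230 to 1161 (goblet-like), 278 to 2031 (enteroendocrine-like), 161 to 1564 (tuft-like) and 238 to 3988 (lymphocyte-like). Members ranged, for mid-villus minus crypt in clumps, from -0.15 to 1.29 (Reg1), 0.35 to 1.43 (Reg3a) and -0.030 to 0.38 (Reg3g), in enterocyte-like cells from -0.077 to 0.53 (Reg3a), -0.16 to 0.38 (Reg3b) and -0.40 to 0.20 (Reg3g), and for Reg3g from -2.38 to -1.58 in goblet-like and from -3.87 to -2.06 in lymphocyte-like cells. Depth limits Reg1 and Reg3a most: 3 UMIs, the floor used for a count of 0, are 3.98 to 38.9 CPM in tip sums, and Reg3a lay under that floor at the tip of 4 of 5 mice.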
